A study of Mus musculus with 6 samples.

Results

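The 9 genes that other work has reported as targets of the microRNA miR-335 and that lie outside the neural gene families were Rb1, Rock1, Rasa1, Sp1, Daam1, Runx2, Ptprn2, Mertk and Lrg1. They were taken from the array's gene probes by the platform annotation, each probe carrying 1 of these symbols and no other. That gave 13 of the 34967 gene probes, covering 8 of the 9 genes, out of 18069 genes named on the array in this way. Rb1, Rasa1, Sp1, Daam1 and Ptprn2 had 2 probes each and Rock1, Mertk and Lrg1 had 1. Runx2 had none by this rule.

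The samples were 6 neurosphere cultures of mouse (C57BL/6) cortical precursors, taken from the dorsal telencephalon at embryonic day 12.5. Of these, 3 were transfected with an antisense oligonucleotide to miR-335 built of 2'-O-methyl RNA (2' O Me-335), and 3 with a nonsense control of the same chemistry (2' O Me-EGFP). All 6 were grown without serum in bFGF, hEGF and LIF, and the treatment time is labelled 24 with no unit. Each culture was read on 1 single-colour CodeLink mouse array. The replicates are labelled independent, but separate litters or cultures are not named, so the p-values cover only the variation among these 6 arrays. Each arm used 1 oligonucleotide, and microRNA levels were not analysed here.

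A microRNA guides the Argonaute protein to messenger RNAs that pair with its seed, the bases near its 5′ end, and paired mRNAs are translated less and often degraded. An antisense oligonucleotide occupies the microRNA and so can relieve its targets. The gene for miR-335 lies in an intron of the imprinted gene Mest. In human breast cancer cells the microRNA is known as a suppressor of metastasis, with MERTK and PTPRN2 among its reported targets. RUNX2 was reported in human mesenchymal stem cells, and ROCK1 and LRG1 in human neuroblastoma cells.

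The 2 mature strands are shown because their seeds, bases 2 to 8 in capitals, are what defines a candidate target. Both are from RefSeq, build GRCm38.p6, on the plus strand, at chr6:30741314-30741336 for the 5p strand and chr6:30741354-30741375 for the 3p strand.
mmu-miR-335-5p: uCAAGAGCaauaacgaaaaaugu
mmu-miR-335-3p: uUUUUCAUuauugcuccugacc
The precursor hairpin, at chr6:30741299-30741396, holds them on its opposite arms, which are in capitals.
Mir335 hairpin: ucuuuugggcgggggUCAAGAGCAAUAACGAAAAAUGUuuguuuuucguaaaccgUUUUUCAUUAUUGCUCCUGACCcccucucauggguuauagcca
An mRNA site for the 5p seed reads GCUCUUG and one for the 3p seed reads AUGAAAA. Among the 1679 mature mouse microRNAs of the same table, 0 others share the 5p seed and 0 others the 3p seed. Transcript sequences were not used here, so which of the 9 mRNAs carry such a site was not examined.

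Intensities are given in units of each array's median. A probe counted as above background on an array when it exceeded the median of the negative control spots by 3 scaled median absolute deviations, a limit between 0.492 and 0.692. Of the 13 probes, 9 were above it wherever they had a value, 3 were on 0 arrays, and the dim Ptprn2 probe was on 2 arrays of each group. Levels of different probes are not set against each other, because probes differ in how brightly they bind.

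One array stood apart. Control replicate 1 correlated better with the anti-miR-335 arrays (mean r = 0.984) than with the other controls (mean r = 0.976), across 17843 probes above background on every array. Each of the other 5 arrays correlated best with its own group. Control replicate 2 had a higher mean r with the anti-miR-335 arrays (0.985), and a higher one still with the other controls (0.987). Control replicate 1 lay above both other controls at 6 of 9 reported-target probes above background on at least 3 arrays with 3 control values. Among all probes of that brightness it did so at 51.4%. The plot of differences therefore shows each reported-target probe also without it. Leaving out a control because it resembles the anti-miR-335 arrays more than the other controls in itself tends to widen group differences. Over all probes, 0 had a limma adjusted p under 0.05 with that array and 1100 without it. Passing without it is therefore a description only.

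As to cell identity, 9 of 11 measured cortical precursor markers were above background on at least 3 arrays, among them Nes, Sox2, Pax6 and Vim, while Emx1 and Hes1 were on none. Their summed intensity was 329 to 362 on the anti-miR-335 arrays and 305 to 326 on the controls, and is carried by a few bright probes. Fabp7 alone averaged 110 on the anti-miR-335 arrays and 90.1 on the controls. Nes (log2 difference -0.15) and Emx2 (-0.25) had differences of the other sign, and the median log2 difference of the list was 0.05. RNA came from whole cultures, so fewer cells of a type and less RNA per cell cannot be told apart.

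The question was whether the reported targets differ when miR-335 is blocked. As ratios of mean intensity, anti-miR-335 over control, the bright Rb1 probe was at 1.40, Mertk at 1.37 and Rock1 at 0.763. None of these genes passed the test, which was run on log2 values. By limma, 0 of the 13 probes had an adjusted p under 0.05, as had 0.0% of all 34847 probes tested. At an unadjusted p under 0.05 the count was 3 of 13, the probes for Rb1, Rock1 and Mertk, while 9.07% of all probes reached it: Rb1 and Mertk were higher, as were 4.91% of all probes, and Rock1 was lower, as were 4.17%. With a Mertk value that the scanner flagged put back, the count was 2 of 13. The genes were listed with earlier results of these arrays known, so that count is a description only. Taking the brighter probe per gene, 4 genes were higher and 4 lower, with a median log2 difference of 0.04, against 0.01 over all probes tested and 0.03 over those above background on at least 3 arrays. Without control replicate 1 that median was 0.17, against 0.04 over all probes, dim ones included. In the same fit the medians of the pathway lists described below ranged from -0.07 to 0.19.

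**Figure D1:**
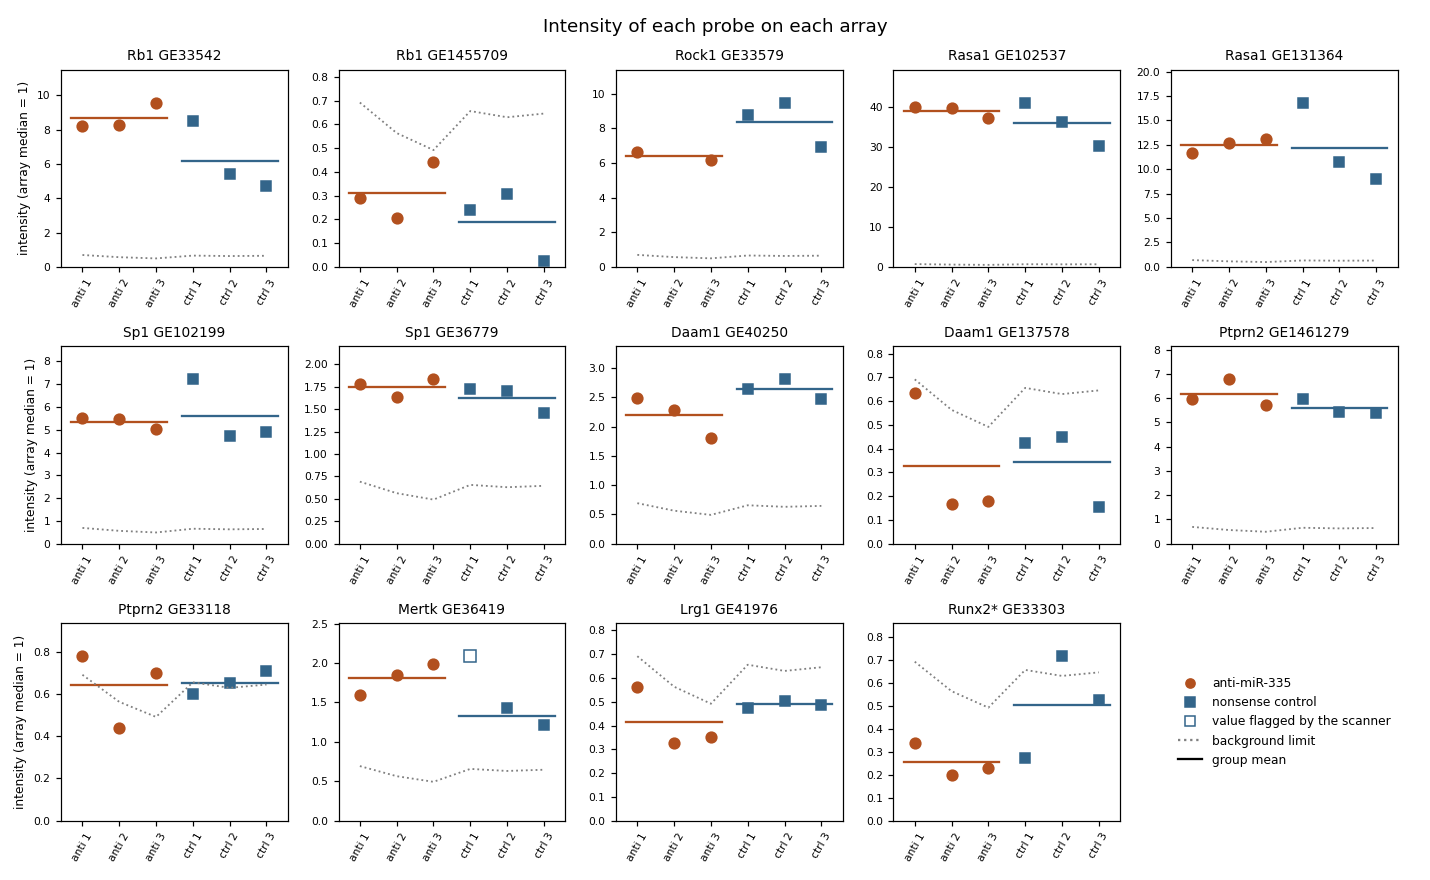
Intensity (vertical axis, in units of the array median) of each reported-target probe on the 3 anti-miR-335 arrays (circles) and the 3 control arrays (filled squares), with group means as lines and the background limit dotted. The open square is the Mertk value of 2.09 that the scanner flagged on control replicate 1, and Runx2 with an asterisk is named from the scanner's description only.

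Rb1, which encodes the retinoblastoma protein that holds E2F transcription factors in check before S phase, had the smallest p of the 9 genes. Its bright probe (GE33542) read 8.22, 8.28 and 9.59 on the anti-miR-335 arrays, against 8.49, 5.41 and 4.70 on the controls. The groups overlapped because control replicate 1 lay among the anti-miR-335 values, while control replicates 2 and 3 lay well below all of them. The means were 8.70 ± 0.770 and 6.20 ± 2.02 (SD, n = 3 each), and the log2 difference was 0.53 ± 0.19 (SE), with a 95% interval from 0.11 to 0.96. By limma the unadjusted p was 0.0192 and the adjusted p 0.490, rank 1357 of 34847 probes.

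The Rb1 call turned on that one control. The array was singled out for correlating better with the anti-miR-335 arrays than with the other controls. A call without it is therefore a description only. Without control replicate 1 the log2 difference was 0.78 ± 0.11 (SE) and the limma adjusted p 0.0182, in a fit where 3.17% of all probes passed, 2.27% higher and 0.906% lower. It was the only one of the 13 probes to pass there, and 4 of 13 had an unadjusted p under 0.05, against 18.4% of all probes. Between the replicate 1 arrays themselves, Rb1 differed by -0.05 on the log2 scale, with spot means of 606 and 572 in the scanner output for the anti-miR-335 and the control array and local backgrounds of 68 and 55. The second Rb1 probe (GE1455709), which the scanner output describes as a cDNA clone with no gene name, was below background on every array, at 0.205 to 0.441 in the anti-miR-335 arrays and 0.0229 to 0.309 in the controls, and its difference has no bound.

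The 3 genes whose arrays followed Rb1 most closely, among 12134 single-symbol probes above background on all 6 arrays, were Gphn, Spop and Zfp932. Gphn encodes gephyrin of inhibitory synapses and Spop an adaptor of a cullin ubiquitin ligase. Their Pearson r with Rb1 over the 6 arrays was 0.999, 0.999 and 0.996. All of them shared the Rb1 pattern of a high control replicate 1: Gphn read 7.45, 7.48 and 8.20 on the anti-miR-335 arrays, against 7.69, 5.68 and 5.04 on the controls. Such a likeness over 6 arrays is a description, since these arrays also share whatever set control replicate 1 apart.

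Of 13 genes in the RB and E2F list, Rb1 included, 5 had positive and 8 negative differences, with a median of -0.02, and 0 passed. The related pocket protein gene Rbl2 read 1.54, 1.32 and 1.53 on the anti-miR-335 arrays, against 1.58, 1.27 and 1.001 on the controls (log2 difference 0.21 ± 0.20 SE). The other, Rbl1, was not above background on any array. Tfdp1 and Tfdp2, which encode the DP partners of E2F, had differences of 0.18 ± 0.12 and -0.27 ± 0.21 (SE). Rb1 was also the only list member to pass without control replicate 1, where 3.17% of all probes did.

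**Figure D2:**
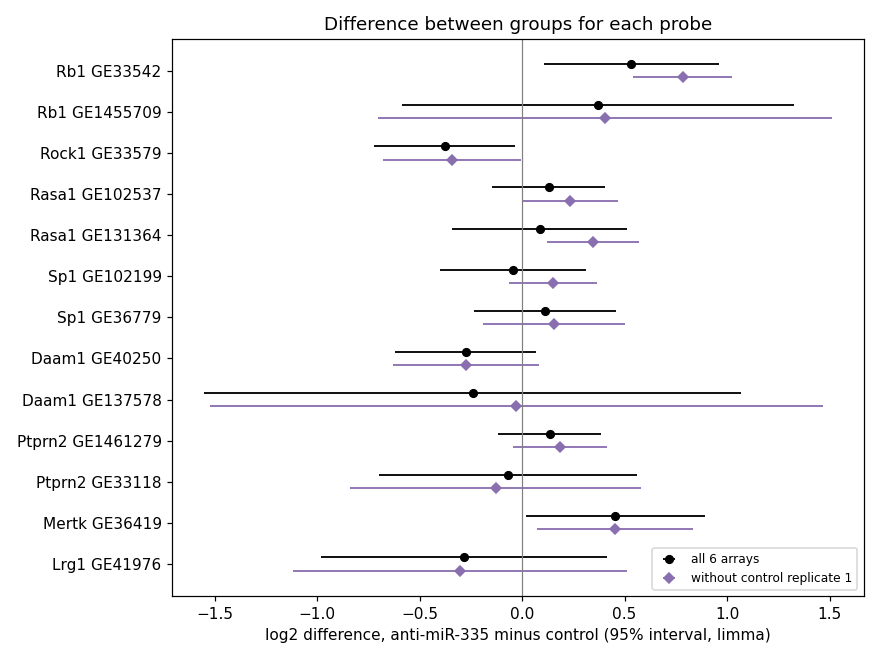
Log2 difference, anti-miR-335 minus control (horizontal axis), for each reported-target probe with its 95% interval by limma, over all 6 arrays (circles) and without control replicate 1 (diamonds). The bright Rb1 probe moves to 0.78 without that array, and Rock1 to -0.34. Mertk has no value on that array, so leaving it out cannot move it.

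Rock1 encodes a kinase that raises actomyosin contraction. It read 6.65 and 6.15 on anti-miR-335 replicates 1 and 3, against 8.76, 9.499 and 6.91 on the controls, and its value on anti-miR-335 replicate 2 is empty. All of the anti-miR-335 values lay below all of the control values. The means were 6.40 ± 0.354 (SD, n = 2) and 8.39 ± 1.33 (SD, n = 3), and the log2 difference was -0.38 ± 0.15 (SE), with a 95% interval from -0.72 to -0.03 and a limma adjusted p of 0.522. Without control replicate 1 it was -0.34 ± 0.15. With the replicate number as a block it was -0.28, since control replicate 2, the highest value, then has no partner.

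Daam1 encodes a formin that links Dishevelled to actin assembly. Its bright probe (GE40250) read 2.48, 2.29 and 1.81 on the anti-miR-335 arrays, against 2.64, 2.81 and 2.47 on the controls. The anti-miR-335 values were the lower ones apart from replicate 1, which lay just above the lowest control. The log2 difference was -0.27 ± 0.16 (SE), with a 95% interval from -0.62 to 0.07 and a limma adjusted p of 0.637, and it stayed at -0.27 without control replicate 1. The second Daam1 probe (GE137578) was below background on every array.

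Around Rock1 and Daam1, most genes of the ROCK and formin list had positive differences, none of which passed. Of 26 tested, 20 had positive and 6 negative differences, the median was 0.08, and 0 passed over all 6 arrays. Positive differences were found at 51.9% of all probes, and at 55.7% of those above background on at least 3 arrays. The list median was 0.01 without control replicate 3 and -0.0044 without the replicate 2 pair. Ezr, which encodes ezrin, a membrane-to-actin linker and ROCK substrate, read 26.2, 30.03 and 31.1 on the anti-miR-335 arrays, against 23.2, 24.5 and 24.5 on the controls (log2 difference 0.27 ± 0.10 SE, limma adjusted p = 0.499). Ppp1cb, the catalytic subunit of myosin phosphatase, which ROCK opposes, read 17.1, 16.8 and 18.5 against 18.9, 12.7 and 7.35 on the controls, again with control replicate 1 high. Without that control 3 of the 26 passed, where 3.17% of all probes did, and 2 passed without the replicate 1 pair. All 3 were higher: Ppp1cb at 0.85 ± 0.18, the Dishevelled gene Dvl2 at 0.52 ± 0.10 and the radixin gene Rdx at 0.49 ± 0.10 (log2 difference, SE). Dvl2 and Rdx are named for passing there, after their values were seen.

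Rasa1 encodes p120 RasGAP, which switches Ras off, and its probes lay far above background on all arrays. The brighter one (GE102537) read 40.1, 39.7 and 37.4 on the anti-miR-335 arrays, against 41.2, 36.4 and 30.4 on the controls. The groups overlapped, with control replicate 1 the highest of all. The log2 difference was 0.13 ± 0.12 (SE), with a 95% interval from -0.15 to 0.41 and a limma adjusted p of 0.795, and without control replicate 1 it was 0.23 ± 0.10. The other probe (GE131364) read 11.7, 12.7 and 13.1 against 16.8, 10.7 and 9.03 on the controls, a difference of 0.09 ± 0.19 (SE) over all arrays. Its control replicate 1 value was 0.78 above the other controls on the log2 scale, and without that array the difference was 0.34 ± 0.10 (limma adjusted p = 0.0973).

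The Ras and Ras GAP list, Rasa1 included, gave 9 positive and 4 negative differences among 13 tested, with a median of 0.12, and 0 passed. Rras2, a Ras-related GTPase gene, read 1.96, 2.49 and 2.12 on the anti-miR-335 arrays, against 2.63, 2.89 and 2.92 on the controls (log2 difference -0.37 ± 0.14 SE, limma adjusted p = 0.504). Its groups did not overlap, and control replicate 1 stood with its own group here. Arhgap35 encodes a binding partner of p120 RasGAP. It read 12.5, 15.7 and 15.4 against 16.5, 10.2 and 9.35 on the controls. Without control replicate 1 it was the 1 gene of this list to pass (log2 difference 0.56 ± 0.11 SE, limma adjusted p = 0.0337). In that fit 3.17% of all probes passed, 2.27% higher.

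**Figure D3:**
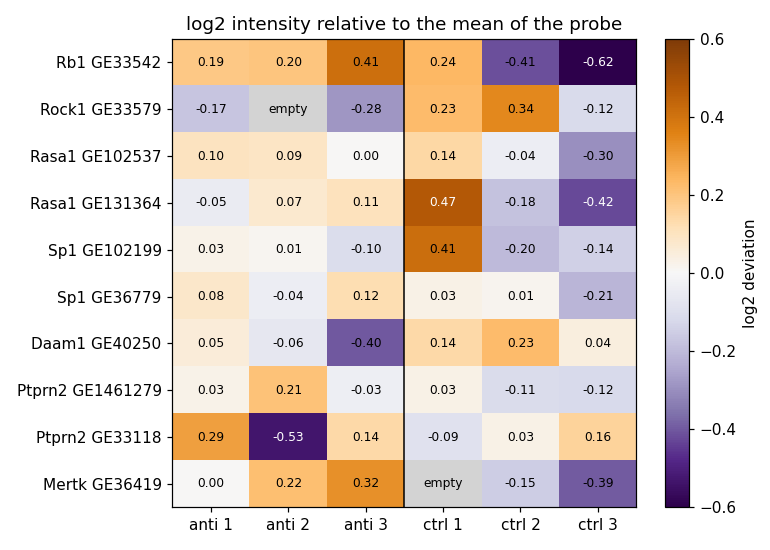
Log2 intensity of the 10 reported-target probes above background on at least 3 arrays (rows), each relative to its own mean over the arrays, on the anti-miR-335 arrays (left of the line) and the control arrays (right). Control replicate 1 is high for Rb1, for the second Rasa1 probe and for the brighter Sp1 probe, and the grey cells are values left empty in the deposited table.

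Sp1 encodes a transcription factor that binds GC boxes in many promoters. Its brighter probe (GE102199), described in the scanner output as a cDNA clone with no gene name, read 5.51, 5.45 and 5.04 on the anti-miR-335 arrays, against 7.21, 4.71 and 4.90 on the controls. Apart from control replicate 1 the 5 arrays lay within a narrow range. The log2 difference was -0.05 ± 0.16 (SE) over all arrays and 0.15 ± 0.10 without control replicate 1, so its sign turned with that array. The other probe (GE36779), which the scanner output names Sp1, read 1.78, 1.64 and 1.83 against 1.72, 1.70 and 1.45 on the controls, a difference of 0.11 ± 0.16 (SE). The 95% intervals over all arrays were -0.40 to 0.31 and -0.23 to 0.46.

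Runx2, the transcription factor that directs osteoblast differentiation, was not among the annotated probes. The scanner output describes 1 probe (GE33303) as Runx2. It read 0.337, 0.198 and 0.229 on the anti-miR-335 arrays, against 0.272, 0.716 and 0.527 on the controls. Only control replicate 2 was above its background limit, so no fold is given, and the limma adjusted p was 0.565. Of 8 mesenchymal and osteoblast markers measured, 2 were above background on at least 3 arrays, Pdgfrb and Sp7, while Col1a1, Col1a2, Col3a1, Dcn and Lum were on none.

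Genes of the Sp and Runx list gave 4 positive and 6 negative differences among 10 tested, with a median of -0.03 (0.12 over those above background on at least 3 arrays), and 0 passed. Alpl, the alkaline phosphatase gene, read 2.11 and 2.05 on anti-miR-335 replicates 1 and 2, against 1.37, 1.65 and 1.90 on the controls (log2 difference 0.36 ± 0.19 SE). Cbfb, the shared partner of the Runx proteins, read 23.8, 22.5 and 21.0 against 26.2, 19.5 and 12.8 on the controls (0.26 ± 0.21 SE). Its control values spanned more than the difference.

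Mertk encodes a receptor tyrosine kinase of the TAM family that drives the engulfment of dying cells. It read 1.60, 1.85 and 1.99 on the anti-miR-335 arrays, against 1.43 and 1.21 on control replicates 2 and 3. The deposited table leaves control replicate 1 empty. On these 5 values the groups did not overlap, with means of 1.81 ± 0.201 (SD, n = 3) and 1.32 ± 0.157 (SD, n = 2). The log2 difference was 0.45 ± 0.19 (SE), with a 95% interval from 0.02 to 0.89, an unadjusted p of 0.0433 and an adjusted p of 0.540 by limma.

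The empty Mertk value exists in the scanner output. The spot was flagged I there, with a spot mean of 179 over a local background of 52, and its normalized intensity was 2.09, above every other Mertk value. Put back, it made the groups overlap and brought the control mean to 1.58 ± 0.456 (SD, n = 3). The log2 difference was then 0.23 ± 0.21 (SE), with a 95% interval from -0.24 to 0.71 and a limma adjusted p of 0.780. Group values that do not overlap were found at 2 of the 13 probes, Mertk higher and Rock1 lower, and at 15.0% of all probes, 7.59% higher and 7.37% lower. These are the 2 probes with an empty value.

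Of the 12 TAM receptor genes tested, 7 had positive and 5 negative differences, with a median of 0.12, and 0 passed. The sign of that median turned without anti-miR-335 replicate 2, to -0.0087, and without the replicate 2 pair, to -0.03. At an unadjusted p under 0.05, 4 were higher, Mertk among them, where 4.91% of all probes were. All 12 genes were above background on at least 3 arrays. In a fit of such probes alone, 1397 of 21956 were higher at that p. With its flagged value put back, Mertk had an unadjusted p of 0.298 by limma and left that count. Elmo1, which links engulfment receptors to Rac, read 0.995, 1.42 and 1.19 on the anti-miR-335 arrays, against 0.737, 0.734 and 0.797 on the controls (log2 difference 0.65 ± 0.21 SE, limma adjusted p = 0.459). Itgb5, the integrin beta 5 gene, read 7.07, 7.69 and 7.62 against 5.71, 5.17 and 5.43 (0.46 ± 0.10 SE, limma adjusted p = 0.383). In both genes control replicate 1 stood with the controls. Itgb5 was the 1 gene of the list to pass without that array, at 0.49 ± 0.09 (limma adjusted p = 0.0282), where 3.17% of all probes passed.

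The other TAM receptors and the ligand genes Gas6 and Pros1, named here for completeness after their values were seen, split. Axl read 4.28, 5.55 and 3.44 on the anti-miR-335 arrays, against 3.39, 3.18 and 2.63 on the controls, with no overlap (log2 difference 0.51 ± 0.18 SE). Tyro3 read 19.4, 25.5 and 11.2 against 10.9, 18.8 and 19.2, with wide overlap. Gas6 read 16.5, 15.2 and 14.2 against 21.5, 16.3 and 16.03 (-0.22 ± 0.13 SE). Pros1, the protein S gene, read 4.51, 6.32 and 5.90 against 7.28, 5.63 and 4.55 (-0.05 ± 0.18 SE). Mertk is also a gene of microglia and macrophages. Of their 6 measured markers, Ptprc, Itgam, Tyrobp and C1qa were not above background on any array and Cx3cr1 was on at least 3. Their summed intensity, 2.53 to 2.67 on the anti-miR-335 arrays and 1.46 to 2.54 on the controls, comes mostly from probes below the limit and says nothing of such cells.

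**Figure D4:**
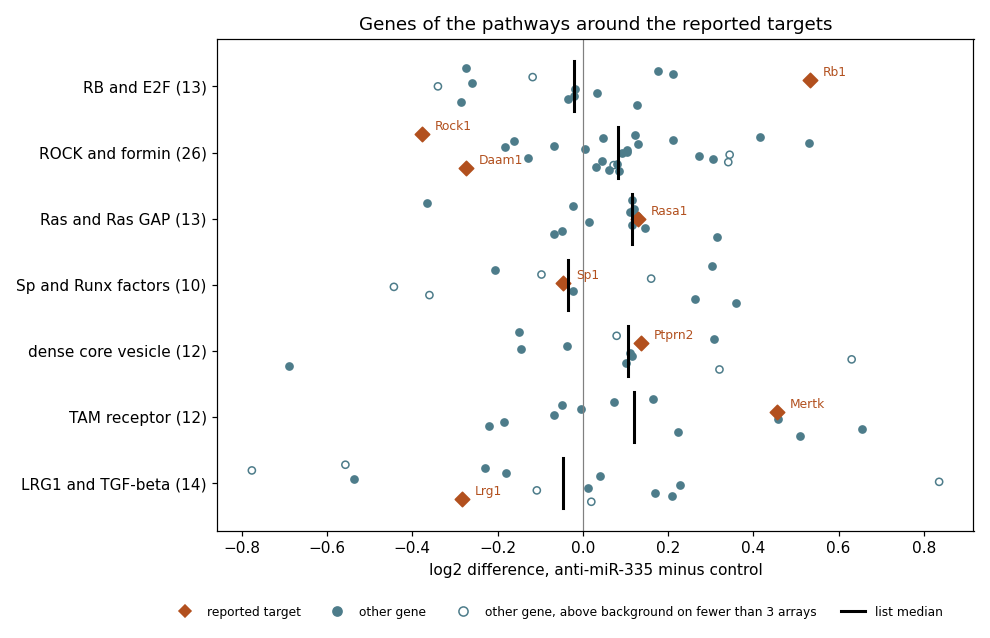
Log2 difference, anti-miR-335 minus control (horizontal axis), of the genes in the 7 pathway lists around the reported targets, 1 point per gene by its brightest probe, with the number of genes tested in brackets and list medians as bars. Rb1 lies above its list's median of -0.02 and Rock1 and Daam1 below their list's median of 0.08, and none of the points passed the test.

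Ptprn2 encodes phogrin, a membrane protein of the dense core vesicles from which neurons and endocrine cells release peptides. Its brighter probe (GE1461279), described in the scanner output as an embryonic stem cell cDNA clone, read 5.97, 6.78 and 5.72 on the anti-miR-335 arrays, against 5.98, 5.42 and 5.39 on the controls. The log2 difference was 0.14 ± 0.11 (SE), with a 95% interval from -0.12 to 0.39 and a limma adjusted p of 0.755. Without control replicate 1 it was 0.18 ± 0.10. The other probe (GE33118), which the scanner output names Ptprn2, lay at the background limit with 0.780, 0.441 and 0.702 against 0.600, 0.651 and 0.712 (-0.07 ± 0.28 SE). The probes differed in sign within their errors.

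Among 12 dense core vesicle genes, 8 had positive and 4 negative differences, the median was 0.11, and 0 passed. Of the 12, 9 were above background on at least 3 arrays, with a median of 0.10. The others were above it on no array, and all of these had positive differences. Scg3, a granin that sorts vesicle cargo, read 38.1, 43.9 and 42.4 on the anti-miR-335 arrays, against 34.4, 31.1 and 35.0 on the controls, without overlap (log2 difference 0.31 ± 0.11 SE, limma adjusted p = 0.479). Cadps2, a vesicle priming factor gene near background, read 0.340, 0.712 and 0.626 against 0.916, 0.777 and 0.891 (-0.69 ± 0.31 SE, limma adjusted p = 0.547). The closest relative, Ptprn, differed by -0.04 ± 0.18 (SE). Neuronal markers summed to 13.7 to 18.3 on the anti-miR-335 arrays and 11.0 to 15.1 on the controls. Of the 8 measured, 6 exceeded the background limit on 3 or more arrays. Much of the difference in the sum comes from Dcx, which averaged 4.99 and 2.42. Syt1 had a difference of the other sign (log2 difference -0.11). The part of these markers in the vesicle genes was not tested.

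Lrg1 encodes a secreted leucine-rich glycoprotein known to modify TGF-beta signalling in endothelium. Its probe was below background on every array, at 0.563, 0.328 and 0.353 on the anti-miR-335 arrays and 0.476, 0.505 and 0.488 on the controls, so it has no fold. Of 14 genes in the LRG1 and TGF-beta list, 7 had positive and 7 negative differences, with a median of -0.05 (0.03 over those above background on at least 3 arrays, and -0.27 without control replicate 2), and 0 passed. The receptor gene Tgfbr2 read 1.67, 1.99 and 1.88 against 2.40, 2.00 and 2.09 on the controls (log2 difference -0.23 ± 0.15 SE). The ligand gene Tgfb1, near background, differed by -0.54 ± 0.35 (SE). Of 7 endothelial markers 4 were above background on at least 3 arrays, but Pecam1 and Cdh5 were on none, and of 7 neutrophil and liver markers only Afp was.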

How the data were processed

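The deposited table holds linear-scale intensities that the authors scaled to each array's median, per the labels, with CodeLink Expression Analysis 4.1.0.29054, per the file headers. Scanner output was used for the replicate 1 array of each group. There all 35976 and 36032 values in both sources were equal within 0.0001, row by row, and equal the spot mean less the median local background, divided by a constant. In those arrays the empty cells of the table are the masked spots and those flagged I or C. The scale of the other 4 arrays could not be set against scanner output and is taken as the same; the medians of all 6 lay between 0.991 and 0.997.

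Gene names came from the platform annotation, checked against RefSeq (GRCm38.p6): 21615 of 34967 gene probes had 1 symbol, 681 several and 12671 none, and probes with several were left unnamed. The annotation's accession equals that of the scanner output for 9 of the 13 reported-target probes. It differs for the brighter probes of Sp1, Daam1 and Ptprn2 and for the Lrg1 probe, which stand for these genes in gene counts and lists.

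Values under the 5th percentile of positive values, 0.163, were raised to it before log2. The comparison used limma 3.58.1 under R 4.3.3, with lmFit and an intensity-trend eBayes, two-sided and unpaired, with Benjamini-Hochberg adjustment over 34847 probes with at least 2 values per group, at a threshold of 0.05. The fit was tested on simulated data with independent noise on each array, which held no array set apart as control replicate 1 was. Probes with an empty value were fitted on the values they have. A gene with several probes is represented in the pathway lists by its brightest. From each list, reported targets aside, the 2 genes of smallest p, above background on at least 3 arrays, are named. Outside this rule are Rbl1, Rbl2 and Ptprn, as relatives of Rb1 and Ptprn2. So are the genes said to be named after their values were seen. With arrays, their number limits the precision.

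Same-numbered arrays deviated from their group means with correlations of -0.23, 0.04 and -0.26 over 17843 probes, so the numbers were not taken to pair them. Slides are known for 2 arrays only, so batches could not be examined. The genes, lists, tests and naming rule were chosen with earlier results of these data known. Alternatives were other normalization, floors, filters, variance models, weights, a replicate block, and arrays or pairs left out; putting the flagged value back was added after seeing the data.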

Additional observations from a re-analysis of the deposited data

Results flagged for a closer look

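Mertk (GE36419) carries a signal that the deposited table leaves out. On control replicate 1 the scanner's normalized intensity was 2.09, against a background limit of 0.656 on that array. The spot was flagged I, a code that the sources used here do not explain, and what set the flag was not tested.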

How the results depend on the processing

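Over all probes the count past the threshold was 0, as it was with a replicate block, with either other floor, without the intensity trend and after removing dim probes. Array weights gave 474, a robust trend 3 and quantile normalization 1. Leaving out arrays or pairs gave from 0 to 1571: the replicate 1 pair 1571, control replicate 1 alone 1100 and anti-miR-335 replicate 1 alone 1. Among the reported-target probes it was 0, and 0 to 1 when arrays were left out. The 1 was Rb1 each time. Its limma adjusted p was 0.0182 when control replicate 1 was left out and 0.0249 when its pair was left out too. With array weights the limma adjusted p was 0.0424 and the log2 difference 0.68. Those weights were lowest for control replicate 1, at 0.366 against 0.781 to 2.248 for the other arrays. Each of these settings thus drops or down-weights that array. Over the arrays and pairs left out Rb1 ranged from 0.28 to 0.82, and its adjusted p over all alternatives reached 0.997. Rock1 ranged from -0.51 to -0.28 and Mertk from 0.38 to 0.54; leaving out an array that brings a group to 1 value could not be fitted for them.

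These signs turned: Sp1 GE102199 (-0.05) was 0.0889 with array weights, and Daam1 GE137578 was 0.0478 at the 20th percentile floor. With arrays left out the ranges were -0.16 to 0.85 for Rb1 GE1455709, -0.14 to 0.39 for Rasa1 GE131364, -0.17 to 0.15 for Sp1 GE102199, -0.0010 to 0.19 for Sp1 GE36779, -0.87 to 0.36 for Daam1 GE137578 and -0.29 to 0.18 for Ptprn2 GE33118. Of the other genes, Cbfb ranged from -0.010 to 0.51, Rbl1 was 0.0412 with array weights and ranged from -0.35 to 0.10, and Tyro3 was -0.0543 with array weights and ranged from -0.17 to 0.63. The mean of both probes in place of the brighter one turned Sp1 to 0.03 and no other reported target, and the scanner's spot values for the replicate 1 pair turned none. With arrays or pairs left out, list medians ranged from -0.03 to 0.23 for TAM receptors, -0.0044 to 0.20 for ROCK and formins, -0.01 to 0.17 for Ras, -0.07 to 0.09 for RB and E2F, -0.20 to 0.03 for Sp and Runx, -0.27 to -0.06 for LRG1 and TGF-beta and 0.02 to 0.20 for vesicle genes. The cause was not tested.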
